A study of Mus musculus with 6 samples.

Results

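The constitutive proteasome subunit genes are the genes of the alpha and beta rings of the proteasome core (Psma and Psmb), of the ATPase ring (Psmc) and of the non-ATPase subunits and their chaperones (Psmd). They were chosen by name, without the 3 immunoproteasome genes Psmb8, Psmb9 and Psmb10, and by a mean of at least 0.2 corrected counts per cell. Of 17369 gene columns 36 had such a name and 34 met the minimum. The lowest member was Psmd10, at 0.995 per cell, and the highest Psma7, at 20.3. Psma8 (0.0034 per cell) and Psmb11 (0.00022) fell below it and are not described further.

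Levels were measured by droplet single-cell RNA sequencing, which tags the 3' ends of transcripts with unique molecular identifiers (UMIs), in 6 mouse libraries of T helper 9 (Th9) cells. Naive CD4+ T cells were taken from spleen, kept for 48 h with 3 ng/ml hTGFb, 20 ng/ml IL-4 and 20 ug/ml anti-IFNg, and selected with CD4 (L3T4) beads. Libraries A, B and C came from wild-type cells. Libraries D, E and F came from Cblb-/- cells, which lack CBL-B, an enzyme that attaches ubiquitin to proteins and restrains the activation of T cells. All 6 received the same cytokines, and no untreated group was analysed here. Strain, age, the cells in which Cblb was deleted and whether libraries of a genotype came from separate mice are not given in the labels, so p-values measure only the spread between these libraries, which may be technical.

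The proteasome is the chamber in which cells degrade proteins tagged with ubiquitin. Alpha rings close the ends of the core, and beta rings inside it hold the catalytic sites on Psmb5, Psmb6 and Psmb7. A regulatory particle caps the core: a ring of ATPases unfolds the substrate, Psmd1 and Psmd2 form its scaffold, Psmd4 binds ubiquitin chains, and the lid subunit Psmd14 cuts the chains off. Psmd5, Psmd9 and Psmd10 are chaperones that help to assemble the base of that particle. T cells that start to divide make large amounts of protein, and interferon induces Psmb8, Psmb9 and Psmb10, which replace the catalytic beta subunits in the immunoproteasome.

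The libraries held 27258 cells, between 3423 and 5666 each, with a median of 35573 to 39628 raw UMIs per cell and 149381789 to 229387950 raw UMIs per library. Across genes, the correlation between libraries was 0.998 or higher among A, B and C and at least 0.993 among D, E and F. Library E lay nearer to the wild-type libraries (0.988 to 0.990) than D and F did (0.981 to 0.984). In all, 76 cell barcodes occurred in more than 1 library, on 152 cells. Cblb, the targeted gene, was lower by a log2 difference of -0.85 in Cblb-/- libraries, and Il9, the cytokine gene that gives the cells their name, was higher by 1.63. Of the other Th9 markers listed, Batf was higher by 0.81, and Irf4 did not pass, at -0.040 (adjusted p = 0.56, limma). Spi1 was at 0.0067 to 0.227 ppm in these libraries, too low to be tested. Markers of CD4 T cells summed to 1417 to 1470 parts per 1000000 (ppm) of a library in wild type and 1337 to 1405 in Cblb-/- libraries. The pair of CD8 T cell markers summed to 5.68 to 7.20 and 10.2 to 11.1 ppm, and the 4 B cell markers to 2.90 to 3.51 and 5.18 to 9.04 ppm. Myeloid, NK cell and erythroid markers stayed under 0.4 ppm in every library, and mast cell or basophil markers between 0.0488 and 3.29 ppm. The part of the CD8 and B cell signal, which was higher in Cblb-/- libraries, in the results below was not tested.

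Promoter sequences of the members were searched for short motifs. RefSeq promoters on GRCm38.p6, each 250 bases before to 50 after a transcription start, were matched for 28 of the 34 members (30 promoters). The 100 bases before the start are printed for 3 members that were lower in Cblb-/- libraries (Psma1, Psma2, Psmd11) and 3 that were not called (Psmd10, Psmb5, Psmd9). They were picked to show the 3 motifs, with the results known. Capitals mark 3 motifs on either strand. The CCAAT box, which reads ATTGG on the other strand, is bound by the factor NF-Y. The site CCGGAAG, which reads CTTCCGG on the other strand, is bound by ETS factors. The antioxidant response element TGACNNNGC is bound by NRF factors, which are known to induce proteasome genes.
Psma1: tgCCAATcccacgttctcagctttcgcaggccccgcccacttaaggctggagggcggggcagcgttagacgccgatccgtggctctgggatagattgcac
Psma2: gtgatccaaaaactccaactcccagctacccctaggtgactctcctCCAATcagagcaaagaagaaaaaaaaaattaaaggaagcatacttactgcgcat
Psmd11: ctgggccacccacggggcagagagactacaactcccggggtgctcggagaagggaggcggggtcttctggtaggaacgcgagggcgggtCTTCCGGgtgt
Psmd10: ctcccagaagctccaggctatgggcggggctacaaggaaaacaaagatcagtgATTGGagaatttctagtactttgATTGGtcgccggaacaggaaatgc
Psmb5: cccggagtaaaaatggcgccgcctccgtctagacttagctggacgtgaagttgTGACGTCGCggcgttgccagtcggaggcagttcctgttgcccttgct
Psmd9: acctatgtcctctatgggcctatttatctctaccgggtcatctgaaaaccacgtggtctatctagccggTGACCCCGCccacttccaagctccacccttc

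The stretches are chr7:114276117-114276216 on the minus strand for Psma1, chr13:14613142-14613241 on the plus strand for Psma2 and chr11:80428515-80428614 on the plus strand for Psmd11. Those of the members not called are chrX:140956712-140956811 on the minus strand for Psmd10, chr14:54617996-54618095 on the minus strand for Psmb5 and chr5:123228090-123228189 on the plus strand for Psmd9. Of the 30 member promoters, 11 held CCGGAAG (36.7%), as did 8.86% of all 32851 promoters and 21.4% of the 8575 promoters of genes tested between genotypes. CCAAT stood in 11 of the 30 (36.7%), as in 37.4% of all and 38.1% of tested promoters. TGACNNNGC stood in 5 of the 30 (16.7%), as in 12.4% of all and 14.4% of tested promoters. CACGTG, the E box, stood in 2, as in 10.7% of tested promoters. The looser form TGANNNNGC stood in 17 of the 30 (56.7%), as in 43.0% of tested promoters, and GGAAGTG in 7 (23.3%), as in 16.4%. The palindrome bound by nuclear respiratory factor 1 stood in 1, as in 2.44% of tested promoters. That factor is distinct from the NRF factors that bind the antioxidant response element. TGACTCAGC and the site bound by ZNF143 stood in 0, as in 0.315% and 0.630% of tested promoters. TGACNNNGC lies within TGANNNNGC, and CCGGAAG and GGAAGTG can overlap. Of the 28 members with a promoter, 17 were lower in Cblb-/- libraries. CCGGAAG was held by 10 member genes, of which 6 were among these 17. CCAAT was held by 11, of which 7 were, and TGACNNNGC by 5, of which 2 were. The motifs were chosen with their counts in view, and a match describes letters, not a bound site.

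Proteasome subunit transcripts were lower in Cblb-/- libraries, taken over all cells of the Th9 cultures. The 34 genes together held 8782, 8427 and 8800 ppm of the corrected counts of libraries A, B and C, and 7689, 7461 and 7928 ppm of libraries D, E and F. That is 8670 ± 210 ppm in wild type and 7693 ± 233 ppm in Cblb-/- libraries (SD, n = 3 each), 11.3% lower, and the groups did not overlap. Of the 34 members 20 were lower at an adjusted p under 0.05 (limma on log2(ppm + 1), Benjamini-Hochberg over all 8475 tested genes) and 0 were higher. At an unadjusted p under 0.05 25 were lower and 0 higher. Among all tested genes 13.4% were lower and 11.0% higher. All 34 log2 differences were below 0, with a median of -0.18, beside -0.014 over all tested genes, and a range of -0.33 to -0.0054. In 25 of 34 members the lowest wild-type library was above the highest Cblb-/- library, as in 25.6% of tested genes, and in 0 members was it the reverse, as in 19.7%. All members passed the minimum of 5 ppm for testing, and all 34 also passed a minimum of 20 ppm. With that higher minimum 20 members were lower, beside 18.4% of 5097 tested genes lower and 10.7% higher. The median over those genes was -0.036.

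**Figure D1:**
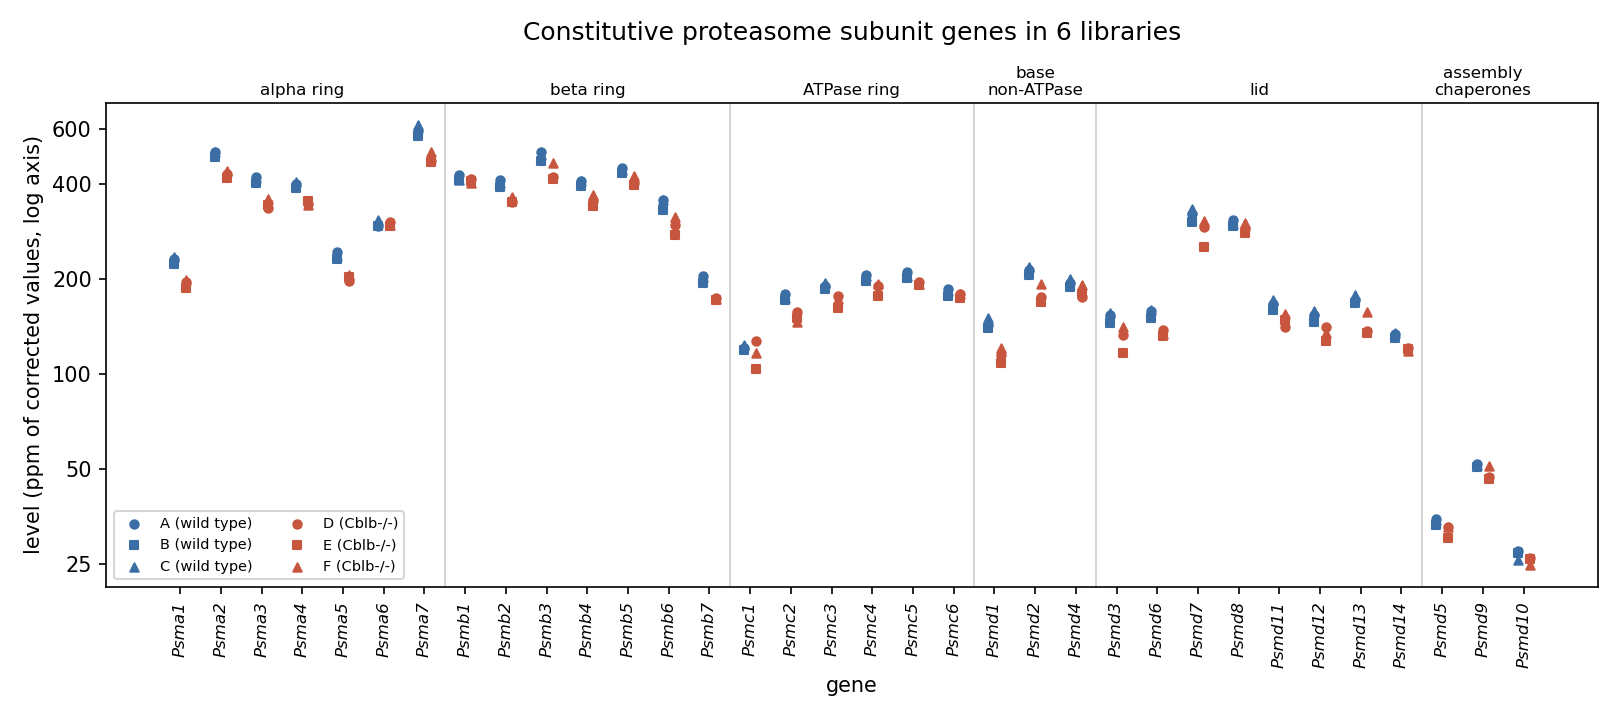
Level of each of the 34 genes (vertical log axis, ppm of a library's corrected counts) in wild-type libraries A, B and C (blue) and Cblb-/- libraries D, E and F (red), 1 point a library, ordered by place in the particle. For 25 genes all red points lie below all blue ones, while Psma6 and Psmb1 overlap.

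The number of members called fell without a wild-type library, as did the share of all tested genes called lower. Without A 9 members were lower (4.81% of tested genes), without B 13 (5.21%) and without C 7 (4.49%). Without D it was 16 (10.01%), without E 18 (16.5%) and without F 19 (13.7%). The summed level of the members was 9.93% to 12.6% lower in each of these 6 cases. Psma1, Psma2, Psma3, Psma5, Psma7, Psmb7 and Psmd1 stayed below the threshold without each library in turn and under every other setting run.

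In the alpha ring 6 of 7 genes were lower, and the ring summed to 2672 ± 65.8 ppm in wild type and 2301 ± 43.5 ppm in Cblb-/- libraries, 13.9% lower. Psma7 (chromosome 2, 180036374 to 180042433, minus strand) was at 591, 569 and 616 ppm in A, B and C and at 472, 470 and 504 ppm in D, E and F. Every Cblb-/- library was below every wild-type library, by a log2 difference of -0.30 (SE 0.046, adjusted p = 0.0054, limma). Psma3 was at 422, 404 and 418 ppm in A, B and C and at 336, 343 and 360 ppm in D, E and F (log2 difference -0.26, SE 0.041, adjusted p = 0.0054, limma). The other lower alpha genes, Psma1, Psma2, Psma4 and Psma5, had differences of -0.25, -0.22, -0.19 and -0.23 on the same scale.

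Psma6 (chromosome 12, 55384222 to 55418454, plus strand), named here after its values were seen, was the exception in the alpha ring. It was at 294, 296 and 307 ppm in A, B and C and at 303, 294 and 296 ppm in D, E and F. The groups overlapped, and the log2 difference was -0.0054 with an SE of 0.036 (adjusted p = 0.93, limma). Its sign turned under other scalings of the libraries.

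In the beta ring 5 of 7 genes were lower, and the ring summed to 2707 ± 67.7 ppm in wild type and 2432 ± 78.4 ppm in Cblb-/- libraries, 10.2% lower. The catalytic subunit Psmb6 (chromosome 11, 70525367 to 70527858, plus strand) was at 355, 331 and 357 ppm in A, B and C and 297, 275 and 316 ppm in D, E and F. Its log2 difference of -0.23 (SE 0.058, adjusted p = 0.024, limma) was the largest of the ring. Psmb7 (chromosome 2, 38588036 to 38644087, minus strand), another catalytic subunit, was at 205, 194 and 204 ppm in A, B and C and 174, 171 and 173 ppm in D, E and F. Its 3 Cblb-/- values lay within 3 ppm of each other, and it had the lowest adjusted p of the ring (log2 difference -0.22, SE 0.037, adjusted p = 0.0072, limma).

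Psmb5, also a catalytic subunit and the main target of the inhibitor bortezomib, did not pass the test. It was at 450, 434 and 443 ppm in A, B and C and 404, 398 and 425 ppm in D, E and F, without overlap (log2 difference -0.11, SE 0.040, adjusted p = 0.073, limma). Psmb1, a structural subunit, was at 428, 413 and 412 ppm in A, B and C and 416, 410 and 404 ppm in D, E and F, and its groups overlapped (log2 difference -0.028, adjusted p = 0.60, limma). Psmb2, Psmb3 and Psmb4, which also lack a catalytic site, were lower by log2 differences of -0.18, -0.18 and -0.19.

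In the ATPase ring 2 of 6 genes were lower. The ring summed to 1076 ± 21.0 ppm in wild type and 995.9 ± 34.9 ppm in Cblb-/- libraries, 7.44% lower. Psmc2 (chromosome 5, 21785283 to 21803787, plus strand) was at 179, 171 and 175 ppm in A, B and C and 158, 151 and 146 ppm in D, E and F, without overlap (log2 difference -0.21, SE 0.042, adjusted p = 0.013, limma). Psmc3 was lower by a log2 difference of -0.15 (adjusted p = 0.043, limma). The 4 that did not pass, Psmc1, Psmc4, Psmc5 and Psmc6, had log2 differences between -0.12 and -0.031. Psmc1 varied most among Cblb-/- libraries, at 128 ppm in D and 104 ppm in E, with the wild-type libraries between 119 and 124 ppm.

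Of the non-ATPase subunits of the base 2 of 3 were lower, the scaffold subunits Psmd1 and Psmd2. Psmd1 (chromosome 1, 86064387 to 86139151, plus strand) was at 143, 139 and 150 ppm in A, B and C and at 115, 108 and 121 ppm in D, E and F. Its level was 20.3% lower, the largest decrease among the 34 genes (log2 difference -0.33, SE 0.053, adjusted p = 0.0059, limma). Psmd2 was at 214, 205 and 219 ppm in A, B and C and 175, 169 and 193 ppm in D, E and F (log2 difference -0.25, adjusted p = 0.016, limma). The ubiquitin receptor Psmd4 did not pass, with overlapping groups and a log2 difference of -0.097 (adjusted p = 0.15, limma).

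In the lid 5 of 8 genes were lower, and the lid summed to 1552 ± 47.8 ppm in wild type and 1383 ± 67.7 ppm in Cblb-/- libraries, 10.9% lower. Psmd13 (chromosome 7, 140881968 to 140898643, plus strand) was at 172, 168 and 178 ppm in A, B and C and at 137, 135 and 157 ppm in D, E and F. That is the largest difference of the lid (log2 difference -0.27, SE 0.062, adjusted p = 0.018, limma). Psmd6 (chromosome 14, 14112174 to 14120984, minus strand) was at 158, 151 and 159 ppm in A, B and C and at 137, 132 and 134 ppm in D, E and F, with the lowest adjusted p of the lid (log2 difference -0.21, SE 0.040, adjusted p = 0.0095, limma).

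The deubiquitinase Psmd14 was at 134, 130 and 135 ppm in A, B and C and 121, 120 and 119 ppm in D, E and F (log2 difference -0.15, adjusted p = 0.023, limma). Psmd11 and Psmd12 were lower by log2 differences of -0.16 and -0.19. Psmd3, Psmd7 and Psmd8 did not pass. Psmd3 had the adjusted p nearest to the threshold, 0.055 (limma, log2 difference -0.22), and was lowest in library E, at 117 ppm beside 133 in D and 141 in F.

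None of the 3 assembly chaperones passed the test (limma, 0 of 3 in either direction, and 0 at an unadjusted p under 0.05). Psmd9 (chromosome 5, 123169413 to 123250131, plus strand) had the largest difference and the lowest adjusted p of the group. It was at 52.0, 50.8 and 51.5 ppm in A, B and C and 47.1, 46.4 and 51.0 ppm in D, E and F, where F overlapped the wild-type libraries (log2 difference -0.093, SE 0.047, adjusted p = 0.19, limma). Psmd5 and Psmd10 had log2 differences of -0.089 and -0.060. The chaperones were detected at 26.8 to 51.4 ppm in wild type.

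**Figure D2:**
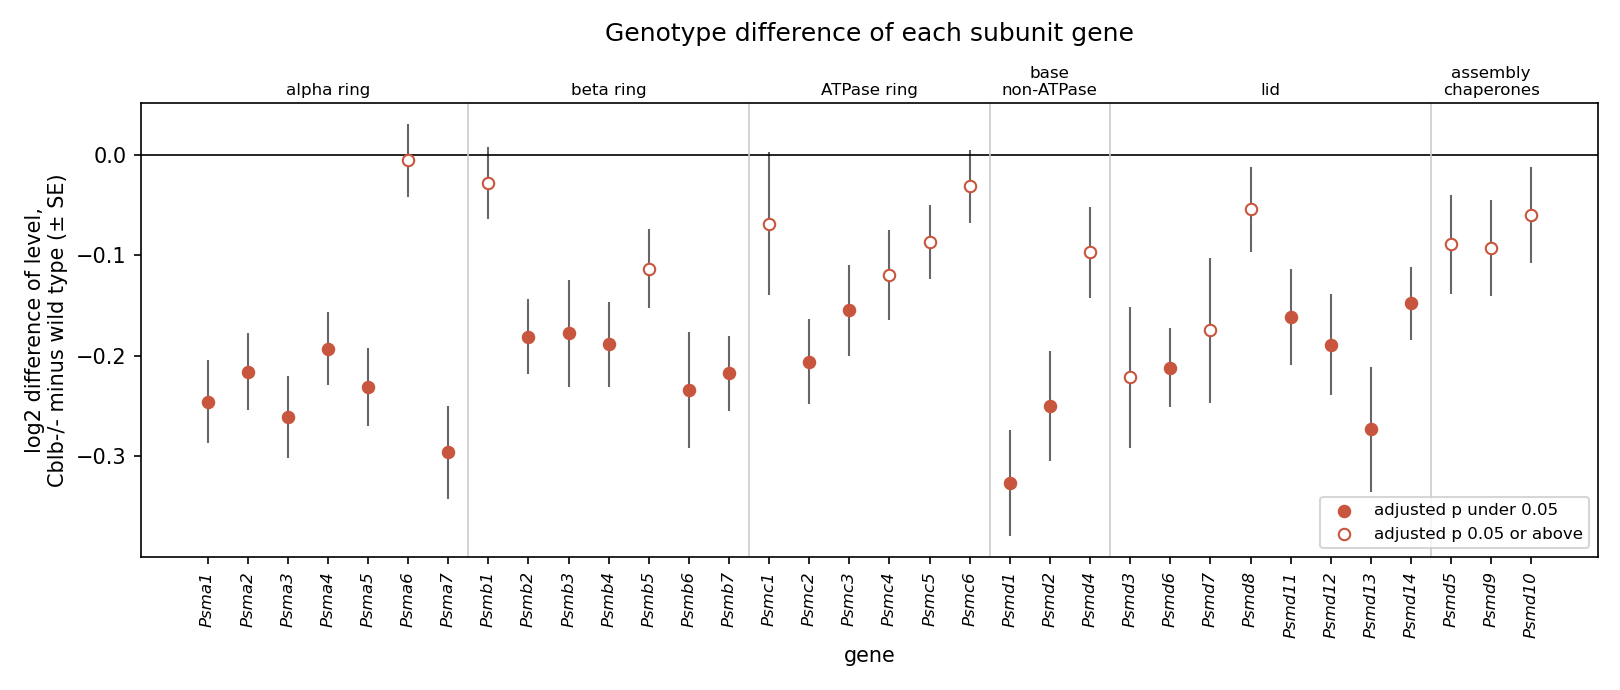
Difference of each gene's level between genotypes (log2 of ppm + 1, Cblb-/- minus wild type, with its SE, n = 3 libraries each). Filled points mark the 20 genes with an adjusted p under 0.05. All 34 points lie below 0, from Psma6 at -0.0054 to Psmd1 at -0.33.

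By particle, 11 of 14 core genes and 9 of 17 regulatory genes were lower. The core summed to 5379 ± 127 ppm in wild type and 4732 ± 121 ppm in Cblb-/- libraries (12.01% lower), and the regulatory particle to 3179 ± 83.6 and 2855 ± 115 ppm (10.2% lower). The ratio of regulatory to core transcripts was 0.588, 0.589 and 0.595 in A, B and C and 0.614, 0.589 and 0.607 in D, E and F. Library E lay among the wild-type libraries, and the difference did not pass (two-sided exact permutation p = 0.3, and 0.3 after adjustment over 5 ratios; 0.1 is the smallest p that 3 against 3 allows).

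The immunoproteasome genes were compared with the constitutive subunits they replace. Psmb8, Psmb9 and Psmb10 had log2 differences of 0.046, 0.17 and 0.083, and 0 of 3 passed the test in either direction (limma), with 1, Psmb9, at an unadjusted p under 0.05. Psmb9 was at 0.199, 0.201 and 0.192 of the level of Psmb6, the subunit it replaces, in A, B and C and at 0.288, 0.252 and 0.247 in D, E and F. Psmb10 was at 0.407, 0.413 and 0.404 of the level of Psmb7 in A, B and C and at 0.534, 0.466 and 0.512 in D, E and F. Both ratios were higher in every Cblb-/- library than in every wild-type library (exact two-sided permutation p = 0.1 each, the smallest possible, 0.17 after adjustment over 5 ratios). Psmb8 over Psmb5 was 0.882, 0.801 and 0.847 in A, B and C and 1.02, 0.834 and 0.975 in D, E and F, with overlap through library E (exact permutation p = 0.3).

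Genes that act with the proteasome were read from lists made with earlier results of these data known, against the same background of 13.4% lower and 11.0% higher. Of 4 activators, which open the core, Psme1 was higher (358, 365 and 364 ppm in A, B and C, and 413, 423 and 411 ppm in D, E and F, log2 difference 0.20, adjusted p = 0.0073, limma). Psme3 was lower (log2 difference -0.18, adjusted p = 0.015, limma), and Psme2 and Psme4 did not pass. Psme1 and Psme2 together stood at 0.128, 0.132 and 0.124 of the core in A, B and C and at 0.166, 0.171 and 0.153 in D, E and F, without overlap (exact permutation p = 0.1, the smallest possible, 0.17 after adjustment over 5 ratios).

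Of 5 factors that assemble the core 2 were lower, Psmg1 and Psmg2 (log2 differences -0.17 and -0.16). Of 7 other subunits and bound factors 2 were lower, the ubiquitin receptor Adrm1 (-0.20) and the thioredoxin-like protein Txnl1 (-0.18). The unfoldase Vcp, which extracts ubiquitin-tagged proteins from membranes and complexes, was at 291, 281 and 308 ppm in A, B and C and 230, 197 and 237 ppm in D, E and F (log2 difference -0.41, adjusted p = 0.0080, limma). Its list had 2 of 4 genes lower, with Nsfl1c at -0.17.

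Rad23b, a shuttle that carries ubiquitin-tagged proteins to the proteasome, was the 1 of 5 shuttle genes that was lower (log2 difference -0.37, adjusted p = 0.0022, limma). Of 2 ubiquitin-activating enzyme genes 1, Uba1, was lower by -0.24. The other, Uba6, did not pass, at 0.17 (adjusted p = 0.13, limma). In the COP9 signalosome, a complex built like the lid, 5 of 10 genes were lower: Cops3, Cops4, Cops5, Cops6 and Cops8. None of the 4 ubiquitin genes and none of the 4 genes of proteasome gene regulation, among them Nfe2l1 and Nfe2l2, passed the test in either direction (limma, 0 of 4 each, with 1 of each at an unadjusted p under 0.05). Of 7 tested chaperonin genes 1, Cct8, was lower, and of 5 peptide-loading genes 2, B2m and Tap1, were higher.

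Lower levels were spread over the cells of a library, not confined to a tail of the distribution. The summed level of the 34 genes was computed in each cell as a share of its corrected counts. Its median was 8731, 8412 and 8785 ppm in A, B and C and 7664, 7446 and 7925 ppm in D, E and F. The 25th and 75th percentiles moved as well. The former were 8029, 7670 and 8116 ppm in A, B and C and 6946, 6786 and 7186 ppm in D, E and F, and the latter 9509, 9180 and 9491 ppm and 8430, 8113 and 8650 ppm.

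Below the median of all wild-type cells lay 46.4% (exact Clopper-Pearson 95% interval 44.8 to 48.0), 59.1% (57.7 to 60.6) and 44.4% (43.0 to 45.9) of cells in A, B and C. In D, E and F it was 81.2% (79.8 to 82.5), 87.9% (87.0 to 88.7) and 75.05% (73.9 to 76.2). These intervals cover counting error only, and cells of 1 library are not replicates. A median of 33 of the 34 genes had a value above 0 in a cell of each library.

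**Figure D3:**
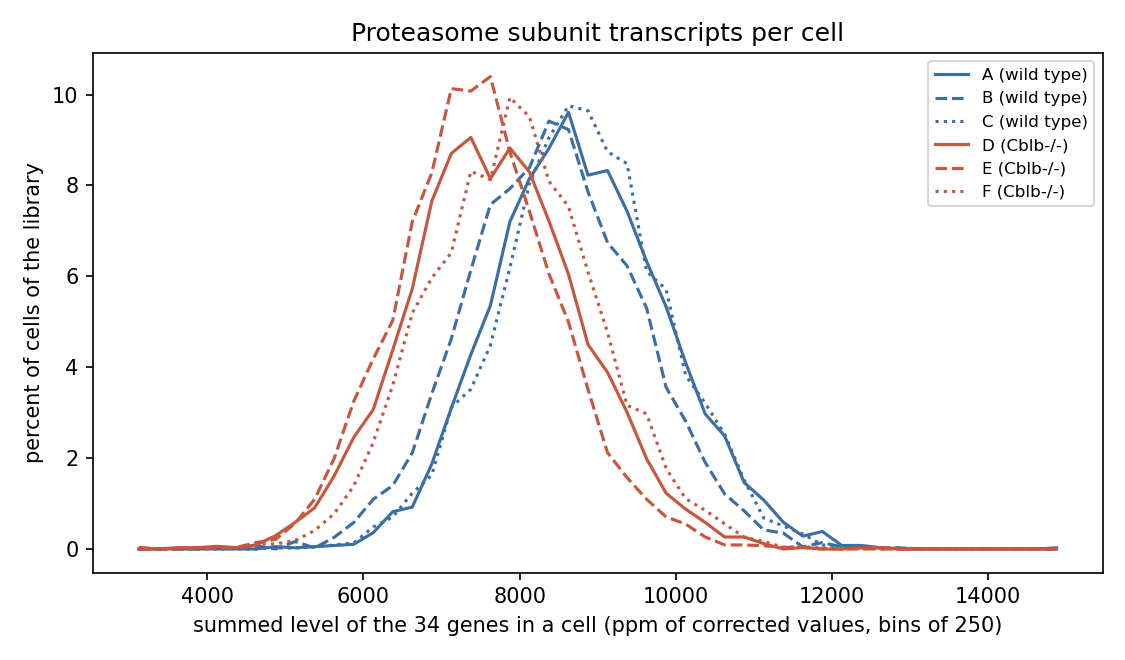
Percent of the cells of each library (vertical axis) by the summed level of the 34 genes in the cell (horizontal axis, ppm of corrected counts, bins of 250 ppm), for wild-type libraries (blue) and Cblb-/- libraries (red). The red curves are shifted to lower values as whole curves, with medians of 7446 to 7925 ppm beside 8412 to 8785 ppm.

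Depth overlapped between the genotypes: median raw UMIs per cell were 37973, 38753 and 37551 in A, B and C and 39628, 35573 and 39480 in D, E and F. With cells divided into 3 equal parts by raw total, 17, 19 and 17 members were lower from the shallowest to the deepest part, beside 12.1%, 11.8% and 13.4% of tested genes, and the summed level was 9.47%, 11.3% and 13.1% lower. Among cells with a mitochondrial share under the median 18 members were lower (12.4% of tested genes), and 20 without the cells whose barcode was in several libraries (13.3%). These subsets were chosen after the data were seen.

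Within the deposited clusters 4 to 22 of the 34 members were lower in Cblb-/- libraries. The authors' cluster numbers 0 to 5 had at least 50 cells in every library, and cluster 6 had too few to test. Of the 34 members 17 were lower in cluster 0 (12.8% of tested genes), 17 in cluster 1 (9.62%), 22 in cluster 2 (11.7%), 4 in cluster 3 (3.85%), 16 in cluster 4 (7.47%) and 8 in cluster 5 (4.68%). At an adjusted p under 0.05 (limma), 0 members were higher in each of them, and 0 at an unadjusted p. Of all tested genes 9.06% were higher in cluster 0, 9.22% in cluster 1, 8.39% in cluster 2, 4.54% in cluster 3, 5.33% in cluster 4 and 4.9% in cluster 5.

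The alpha genes Psma3, Psma5 and Psma7 were lower in all 6 clusters. Psma7 had log2 differences between -0.32 and -0.28 in them, Psma3 between -0.34 and -0.20 and Psma5 between -0.29 and -0.21. The scaffold gene Psmd1 was lower in 5 clusters and reached -0.43 in cluster 4. It did not pass in cluster 3, where it was at -0.18 (adjusted p = 0.12, limma). In cluster 3 the 4 lower members were Psma3, Psma5, Psma7 and Psmd2. Cluster 3 had as few as 61 cells in library D. In no cluster were Psma6, Psmb1, Psmc1, Psmc4, Psmc5, Psmc6, Psmd4, Psmd5, Psmd8, Psmd9 and Psmd10 lower, which makes 11 members.

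Leaving out 1 library moved these counts and the shares of all tested genes called lower. Without A the counts were 6, 5, 12, 1, 5 and 1 in clusters 0 to 5, beside 4.30%, 3.42%, 6.36%, 0.678%, 3.31% and 1.34% of tested genes. Without C they were 5, 5, 9, 0, 4 and 0, beside 3.69%, 3.41%, 5.18%, 0.654%, 2.94% and 1.15%. Without B cluster 3 had 1 (0.952%) and cluster 5 had 3 (1.49%). Without D cluster 3 had 2 (2.42%) and cluster 4 had 8 (3.31%). In cluster 3 without library E, 1 member was higher, Psma6, where 10.7% of tested genes were.

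Whether the genotype difference itself varied between clusters was tested as the difference of a cluster from the mean of the other clusters in each library. For no cluster did a member pass (limma, adjusted p under 0.05, 0 of 34 in either direction). At an unadjusted p under 0.05 there was 1 member, higher for cluster 3. Of all 8125 genes tested 0.369% were lower and 0.406% higher for cluster 2, 0.0492% lower and 0.0123% higher for cluster 1, and 0.0% for the other 4 clusters. The median of the members was -0.065 for cluster 4 and 0.048 for cluster 3, beside -0.013 and 0.0039 over all tested genes.

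Levels of the members also varied between clusters within a library, which is given as a description since clusters were made from these genes among others. Cluster 2 had 26 of 34 members above the mean of the other clusters, 18 of them in all 6 libraries, as 19.3% of genes were. Cluster 3 had 31 above, 13 of them in all 6 libraries (9.97% of genes). Cluster 4 had 28 below, 15 of them in all 6 libraries (11.7% of genes).

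The lid subunit Psmd7 stood out most in cluster 2, at 372, 340 and 401 ppm in A, B and C and 321, 282 and 331 ppm in D, E and F, a mean log2 difference of 0.18 from the other clusters. Psma1 went the other way in cluster 2, with -0.078, below the other clusters in every library. The alpha ring gene Psma2 tracked the sum of the other members best over the 36 profiles of 6 libraries by 6 clusters (Pearson r = 0.97). Over the 36 profiles Psma6 (0.36), Psmb1 (0.38) and Psmd10 (0.096) tracked them least. Within the 18 profiles of a genotype, r for Psma6 was 0.31 in wild type and 0.62 in Cblb-/- libraries. Psmb1 was at 0.33 and 0.20, and Psmd10 at -0.41 and -0.040. Psma1 (0.046) and Psmd13 (0.052) were also low within wild type, and Psma5 (-0.034) and Psma4 (0.12) within Cblb-/- libraries. The 36 profiles share libraries, depth and the genotype difference, and each r is a description.

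**Figure D4:**
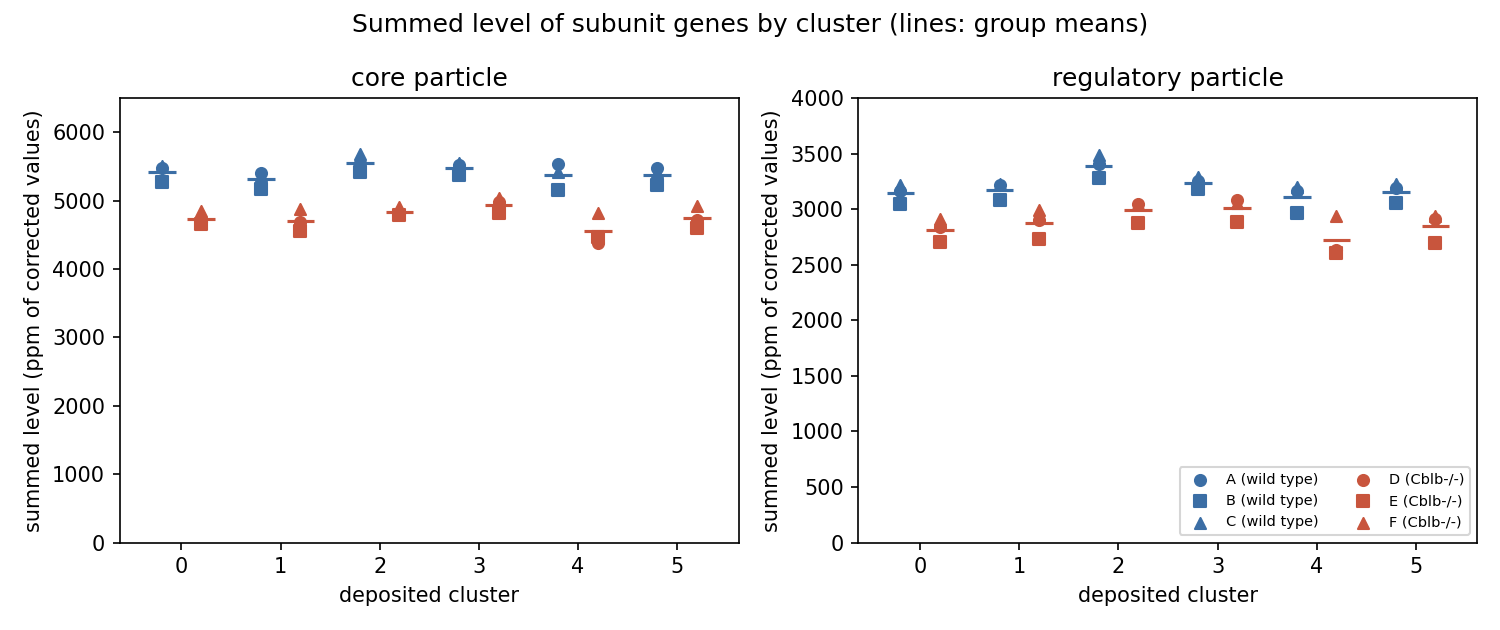
Summed level (ppm of corrected counts) of the 14 core genes and the 17 regulatory genes in deposited clusters 0 to 5, 1 point a library, with lines at the means of wild-type (blue) and Cblb-/- (red) libraries. The red mean lies below the blue one in every cluster, and in cluster 4 library F lies above D and E.

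Summed over all members, cluster 2 was at 9080, 8813 and 9293 ppm in A, B and C and 7970, 7771 and 8071 ppm in D, E and F. Cluster 4 was at 8821, 8237 and 8728 ppm in A, B and C and 7115, 7172 and 7869 ppm in D, E and F. In cluster 4 library F was nearer to the wild-type libraries than D and E were, while the groups still did not overlap.

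Cells with a high Il9 level had slightly more proteasome transcripts than cells of the same library without Il9. Cells whose Il9 value was 10 or more numbered 448 to 1426 per library, and those at 0 numbered 709 to 2515. The 34 genes summed to 9046, 8751 and 9073 ppm in Il9-high cells of A, B and C, and to 8735, 8367 and 8756 ppm in their Il9-zero cells. In D, E and F they summed to 7877, 7675 and 8029 ppm and to 7574, 7394 and 7882 ppm. Il9-high cells were above Il9-zero cells in 6 of 6 libraries, and Il9-high Cblb-/- cells were below Il9-zero wild-type cells in each pairing of these libraries.

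In the fit with library as a block, 19 of 34 members were higher in Il9-high cells and 2 lower, where 23.4% of 8522 tested genes were higher and 31.6% lower. The median log2 difference of the members was 0.052, beside -0.017 over all tested genes. By position, 6 of 6 ATPase genes were higher, 2 of 7 alpha and 4 of 7 beta genes, 2 of 3 other base genes, 4 of 8 lid genes and 1 of 3 chaperones.

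The lid genes Psmd7, Psmd3 and Psmd12 had the largest differences, while Psmd6, Psmd11 and Psmd14 of the lid did not pass, at 0.013, -0.022 and 0.0064. Psmd7 was at 364, 330 and 374 ppm in Il9-high cells and 309, 299 and 322 ppm in Il9-zero cells of A, B and C. In D, E and F it was at 315, 275 and 327 ppm and at 283, 248.6 and 298 ppm (log2 difference 0.17, SE 0.017, higher in 6 of 6 libraries). Psmd3 and Psmd12 were at 0.15 and 0.14, and the ATPase gene Psmc1 at 0.13. Psma1 and Psmd13 were the 2 that were lower, by -0.063 and -0.060. Psma1 was at 222, 213 and 225 ppm in Il9-high and 235, 226 and 238 ppm in Il9-zero cells of A, B and C, and at 193, 182 and 190 ppm and 193, 185 and 204 ppm in D, E and F.

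**Figure D5:**
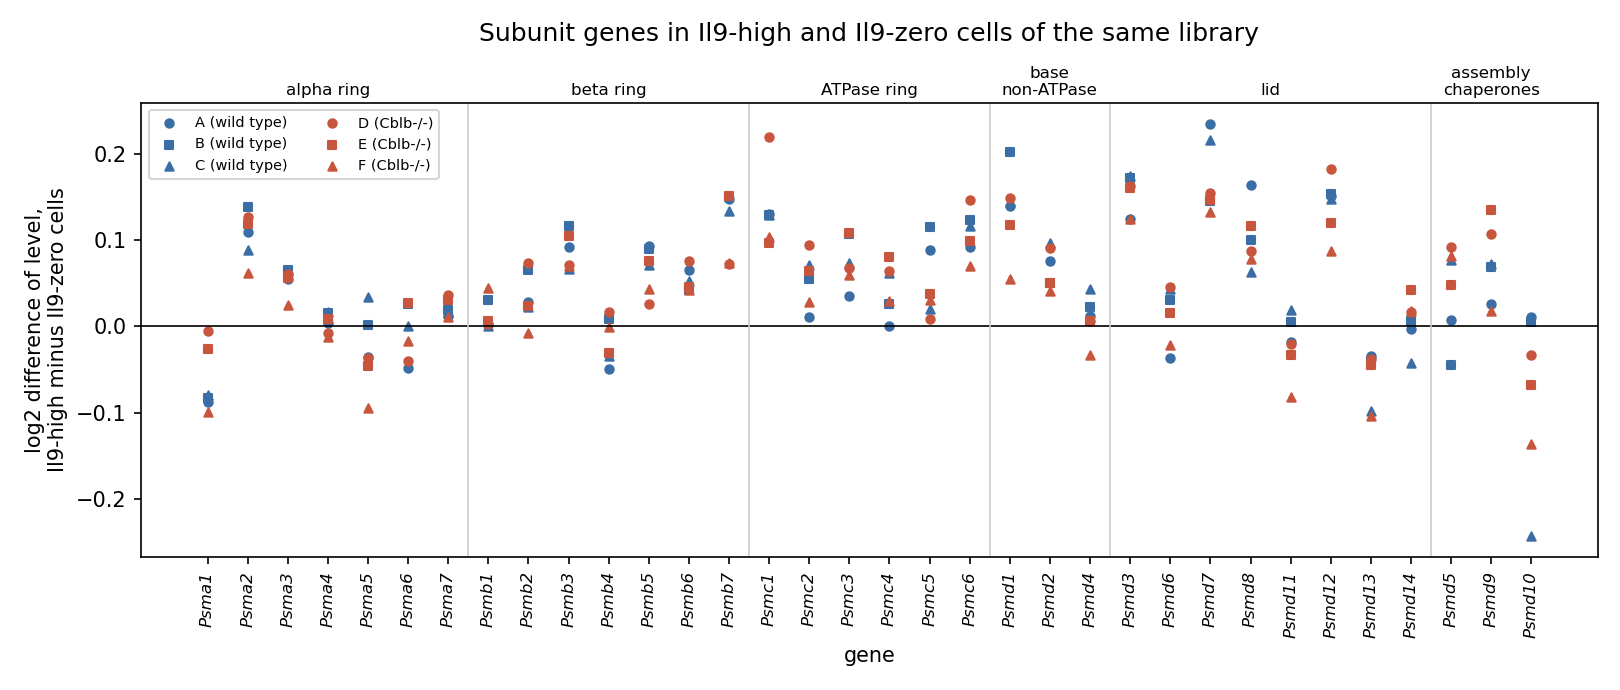
Difference of each gene's level between Il9-high and Il9-zero cells of the same library (log2 of ppm + 1), 1 point a library, wild type in blue and Cblb-/- in red. Psmd3, Psmd7, Psmd12 and all 6 ATPase genes lie above 0 in every library, Psma1 and Psmd13 below.

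Of the Il9-high cells 37.1% to 41.1% in A, B and C and 52.6% to 62.1% in D, E and F were in cluster 2, and 0% of the Il9-zero cells were. Weighting clusters alike left cluster 1 alone with enough cells of both kinds, and there 9 members were higher and 0 lower, where 11.4% of tested genes were higher and 12.2% lower. Median raw UMIs were 42185, 43415 and 43494 in Il9-high and 37998, 39859 and 38252 in Il9-zero cells of A, B and C. They were 40423, 36934 and 40260 in Il9-high and 42387, 36930 and 44185 in Il9-zero cells of D, E and F, so that depth went with Il9 in wild-type libraries and against it in D and F. The part of depth in the Il9 difference was not tested. The difference of the Il9 contrast between genotypes, added after the data were seen, was past the threshold for 0 of 34 members (limma, also 0 at an unadjusted p under 0.05; 2.07% of genes were lower in it and 1.14% higher), with members between -0.059 and 0.060.

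Likeness was taken as Pearson r, over the 36 library-by-cluster profiles of log2(ppm + 1), with the mean of the members' standardised profiles. Among tested genes that are not members, the most alike were Snrpa1 (0.97), Txn1 (0.95), Vcp (0.95), Txnl4a (0.95), Atp5g3 (0.95), Cfl1 (0.95), Ube2l3 (0.94), Got2 (0.94), Atp5a1 (0.94) and Calr (0.94). Snrpa1, which encodes a spliceosome protein, was at 250 ppm in wild type and 180 ppm in Cblb-/- libraries (log2 difference -0.47). All 10 were lower between genotypes by log2 differences of -0.53 to -0.16, a contrast that these profiles contain.

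Some values may hold reads of other genes. Psma4, Psma5, Psmb3, Psmb5, Psmc1 and Psmd2 have pseudogene copies elsewhere that match at least 90 bases of their last 500 at 95% identity or more. Of these copies Gm4950, like Psmb3, has a column of its own in the table. Psmd1 overlaps Gm21972 and Psma2 overlaps AW209491 on the same strand. Psma4, Psma5, Psmb7, Psmc3, Psmd1, Psmd5, Psmd9 and Psmd13 overlap genes on the other strand. The levels of all these members are uncertain where the authors' counting could split reads.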

How the data were processed

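Droplet single-cell RNA libraries were made with 10x Genomics 3' v3 kits, per the labels' protocols. Cell Ranger 3.0.2, Seurat 3.0.0 and the build mm10 are named in the submitters' processing notes, without roles. The authors' table gives each gene in each cell a score, its count after sctransform correction to a common depth, per the file headers. It is not a raw count, and count models were left out. The authors deposited the raw UMI count of each cell and the percent of mitochondrial UMIs beside them. The lowest deposited raw total was 15006 UMIs. Doublet treatment is not given in the sources used here, and no caller was run. Libraries are named by sequencing index and genotype, and lettered A to F here.

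Values were summed per library, cluster or Il9 class, divided by the sum over all genes and multiplied by 1000000 (ppm). The test was limma 3.58.1 in R 4.3.3, two-sided, applied to log2(ppm + 1) where the mean reached 5 ppm, its prior variance following a trend with level, and Benjamini-Hochberg adjustment ran over all tested genes (threshold 0.05). Fold changes understate those of low genes, and ppm are relative to all other genes. Clusters needed 50 cells in each library. Within each particle group, the members with the lowest adjusted p and the largest difference are described in full, with others by range and some by role. Members and lists were chosen with earlier results of these data known. The test was also run on simulated libraries. Noise was drawn there for each gene on its own, so differences shared by the genes of a library were not covered. Positions are from GENCODE M21 (mm10), and copies were searched with blastn 2.17.0. Alternatives covered scalings, pseudocounts, filters, subsets of cells and leaving out each library.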

Additional observations from a re-analysis of the deposited data

How the results depend on the processing

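With all 6 libraries kept, 17 to 20 members were lower in Cblb-/- libraries under every scaling, pseudocount, filter, weighting or subset of cells run. In these fits 0 members were higher. Of all tested genes 7.44% to 18.4% were lower in them and 8.25% to 16.6% higher. Leaving out 1 library gave 7 to 19 (4.49% to 16.5% of all tested genes). In clusters 0 to 5 it gave 5 to 18, 5 to 17, 9 to 19, 0 to 6, 4 to 18 and 0 to 9. The shares of all tested genes lower in these clusters were 3.69% to 14.7%, 3.41% to 10.9%, 5.18% to 10.6%, 0.654% to 7.90%, 2.94% to 7.24% and 1.15% to 6.10%. These fits have fewer libraries. Of the 20 called members 14 were called in every setting with all 6 libraries. Psma6, never called, was above 0 with median-of-ratios scaling (0.0072), upper-quartile scaling (0.014), the sum without ribosomal and mitochondrial genes (0.022), array weights (0.0083), cells of the lowest raw totals (0.018) and without C (0.014) or E (0.0033). Without 1 library it ranged from -0.018 to 0.014. Psmc1 ranged from -0.14 to 0.0083 in the same way, and Psmc6 was at 0.0079 in cells of the lowest raw totals.

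For Il9-high against Il9-zero cells, clusters weighted alike, which left cluster 1 alone, gave 9 higher and 0 lower members. In that fit 11.4% of tested genes were higher and 12.2% lower. An Il9 minimum of 30 gave 21 higher and 1 lower, beside 23.2% and 29.8% of tested genes. The signs of uncalled values turned for Psma4 (-0.00056 at an Il9 minimum of 5, -0.014 near the median depth), Psma6 (0.020 at a minimum of 30, 0.013 near the median depth) and Psmd14 (-0.00072 to 0.016 without 1 library). With clusters weighted alike the values were -0.061 for Psmd5, -0.069 for Psmd14, -0.00076 for Psmc3, 0.026 for Psmb4, -0.032 for Psmc2, -0.0081 for Psmc4, 0.017 for Psma6 and -0.0065 for Psmb1. The cause was not tested. Psmc2, Psmc3 and Psmc4 were called higher in all cells.

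No paired analysis was possible because the libraries in the table carry no replicate number that would pair the genotypes. The Il9 comparison, within libraries, has library as a block. Depth is lowest for Psmd10, at 0.995 corrected counts per cell.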
